A study of Mus musculus with 4 samples.

Results

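Apelin (Apln), its receptor (Aplnr) and 4 further genes that are known from sprouting vessels (Esm1, Unc5b, Adm and Mcam) were followed across cells of the mouse submandibular salivary gland. These 6 genes were taken by symbol from the 31053 listed in each count matrix. They were chosen by their values in the contrast between the study's groups in endothelial cells, so their values in that contrast are a description that supports nothing. The data are single-cell RNA sequencing of 4 libraries on the 10x Genomics platform, made from female C57BL6/J mice after bead depletion of EpCAM-bearing epithelial cells and Ter119-bearing red blood cells. In the 2 deligated libraries (age 14 weeks), a metal clip had closed the main ducts for 14 days and had been taken off 5 days before harvest. The 2 homeostatic libraries (age 12 weeks) came from unoperated mice, so that age differed along with surgery. The protocol speaks of 2 glands and names the sublingual gland beside the submandibular gland, whereas the titles name only the latter. How many animals gave each library is not stated, so the spread between libraries may be technical.

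Apelin is a secreted peptide that signals through APLNR, a G protein-coupled receptor of endothelial cells. In sprouting vessels the leading tip cell, which is selected through Dll4 and Notch, extends filopodia towards VEGF, and apelin is known as a tip-cell product acting on neighbouring stalk cells. Esm1 encodes endocan, a secreted proteoglycan induced by VEGF. Unc5b encodes a receptor for netrins and for ROBO4, with known roles in arteries and tip cells. Adrenomedullin (Adm) is a vasoactive peptide that acts through the receptor CALCRL with a RAMP partner, and it is needed for lymphatic vessels. Mcam encodes CD146, an adhesion molecule of endothelial and mural cells that binds laminins. Apln and Adm are textbook targets of hypoxia-inducible factors.

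The genes lie at separate loci of the mouse genome (GRCm38, GENCODE M21), and all are protein-coding. Apln is on chromosome X from 48025146 to 48034853 (minus strand), Aplnr on chromosome 2 from 85136225 to 85139923 (plus strand) and Esm1 on chromosome 13 from 113209659 to 113218098 (plus strand). Unc5b is on chromosome 10 from 60762593 to 60831581 (minus strand), Adm on chromosome 7 from 110627661 to 110629820 (plus strand) and Mcam on chromosome 9 from 44134469 to 44142727 (plus strand). Aplnr has no intron, Unc5b has 62.7 kb of intron, and the other 4 have between 0.541 and 6.56 kb. Esm1, Adm and Mcam each overlap a listed gene on the other strand (Gzmk, Gm28863 and Gm10687). The sources used here do not say whether counting used strand.

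RefSeq promoter sequences (GRCm38.p6, from 250 bases before to 50 bases after the annotated start) were held for 5 of the 6 genes. The promoters of Apln and Adm are shown because both genes are textbook targets of hypoxia-inducible factors, and those of Esm1 and Unc5b because both genes were lower in cells with Apln. Capitals mark matches, on either strand, to GCGTG or ACGTG, the core of the hypoxia response element, and to TGGGAA, a core recognised by the Notch effector RBPJ. No capitals mean that these letters were not in the window.
Apln, chrX:48034804-48035103, minus strand: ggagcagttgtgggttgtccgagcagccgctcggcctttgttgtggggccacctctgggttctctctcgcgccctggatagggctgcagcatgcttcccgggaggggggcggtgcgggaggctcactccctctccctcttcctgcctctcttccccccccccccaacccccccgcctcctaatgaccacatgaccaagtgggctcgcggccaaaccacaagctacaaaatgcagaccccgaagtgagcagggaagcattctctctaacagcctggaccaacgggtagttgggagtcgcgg
Adm, chr7:110627407-110627706, plus strand: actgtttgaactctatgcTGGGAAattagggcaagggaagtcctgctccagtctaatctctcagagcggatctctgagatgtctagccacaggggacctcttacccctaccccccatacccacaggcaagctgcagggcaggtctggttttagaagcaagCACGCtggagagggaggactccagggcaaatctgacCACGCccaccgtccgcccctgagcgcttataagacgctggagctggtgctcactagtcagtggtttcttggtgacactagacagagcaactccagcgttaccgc
Esm1, chr13:113209409-113209708, plus strand: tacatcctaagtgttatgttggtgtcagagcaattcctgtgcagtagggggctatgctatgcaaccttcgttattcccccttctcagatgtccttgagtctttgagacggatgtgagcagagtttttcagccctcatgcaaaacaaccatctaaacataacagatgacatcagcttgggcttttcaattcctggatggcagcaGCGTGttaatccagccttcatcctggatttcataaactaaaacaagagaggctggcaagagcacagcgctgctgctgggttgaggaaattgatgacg
Unc5b, chr10:60831532-60831831, minus strand: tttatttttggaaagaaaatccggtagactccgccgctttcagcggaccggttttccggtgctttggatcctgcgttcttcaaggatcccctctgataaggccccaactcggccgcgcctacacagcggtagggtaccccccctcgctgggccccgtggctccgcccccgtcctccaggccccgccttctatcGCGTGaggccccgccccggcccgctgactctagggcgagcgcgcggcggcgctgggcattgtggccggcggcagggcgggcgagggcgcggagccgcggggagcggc
The Adm window held GCGTG 2 times and TGGGAA 1 time, and the Esm1 and Unc5b windows held GCGTG 1 time each. The windows of Apln and Mcam held none of the 3 motifs. Of all 32851 promoters of this length, 43.8% held ACGTG or GCGTG and 25.6% held TGGGAA. The shown windows differ in base composition, from 46.3% G and C in Esm1 to 69.7% in Unc5b.

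After filtering, 33695 cells remained (4357 and 7823 deligated, 10615 and 10900 homeostatic). The matrices held between 35662241 and 53898793 UMIs (molecular barcodes that count each captured transcript once), and median UMIs per barcode were 6075 and 5278 in deligated against 2912.5 and 2765.5 in homeostatic libraries. Between 14 and 54 barcodes were shared by any 2 libraries, at most 0.482% of the smaller. Cells were named by resemblance to marker genes, and 11859 were endothelial-like (1849, 3098, 3485 and 3427 in the order deligated 1 and 2, homeostatic 1 and 2, which is used below throughout). Deligated endothelial-like cells lay mostly in cluster 1 (1266, 2402, 24 and 22 cells) and cluster 14 (302, 304, 4 and 6 cells), and homeostatic ones mostly in cluster 0 (2, 6, 2891 and 2814 cells) and cluster 21 (0, 0, 204 and 248 cells). The file headers name Cell Ranger 6.0.1 for deligated and 7.0.0 for homeostatic libraries, so software and group cannot be told apart. Genes with more than 100 kb of intron took 9.92% and 9.60% of endothelial-like UMIs in deligated against 15.5% and 15.3% in homeostatic libraries.

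Each gene had its own distribution over the cell classes. Levels are given in CPM, the count of a gene scaled to a common total of UMIs in the cells summed, and the class levels are shown in the plot by cell class. Of 10286 Aplnr UMIs in retained cells 96.6% fell in endothelial-like cells, as did 96.0% of 13673 Esm1 UMIs, 80.7% of 2352 Unc5b UMIs and 75.2% of 7852 Mcam UMIs. Apln was sparse, with 402 UMIs in 33695 cells. Of these 63.2% were in endothelial-like cells (43.7%, 64.7%, 78.6% and 80.0% by library) and 26.9% in fibroblast-like cells (41.3%, 27.9%, 15.7% and 10.0%). In deligated 1 both classes thus held similar shares. Of 1471 Adm UMIs 63.5% were in fibroblast-like cells (71.2%, 83.3%, 37.3% and 43.3% by library), 15.5% in endothelial-like cells (19.5%, 14.2%, 17.8% and 12.1%) and 10.3% in epithelial-like cells (1.56%, 0.327%, 23.9% and 24.6%). These shares also follow how many cells of each class a library held.

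**Figure D1:**
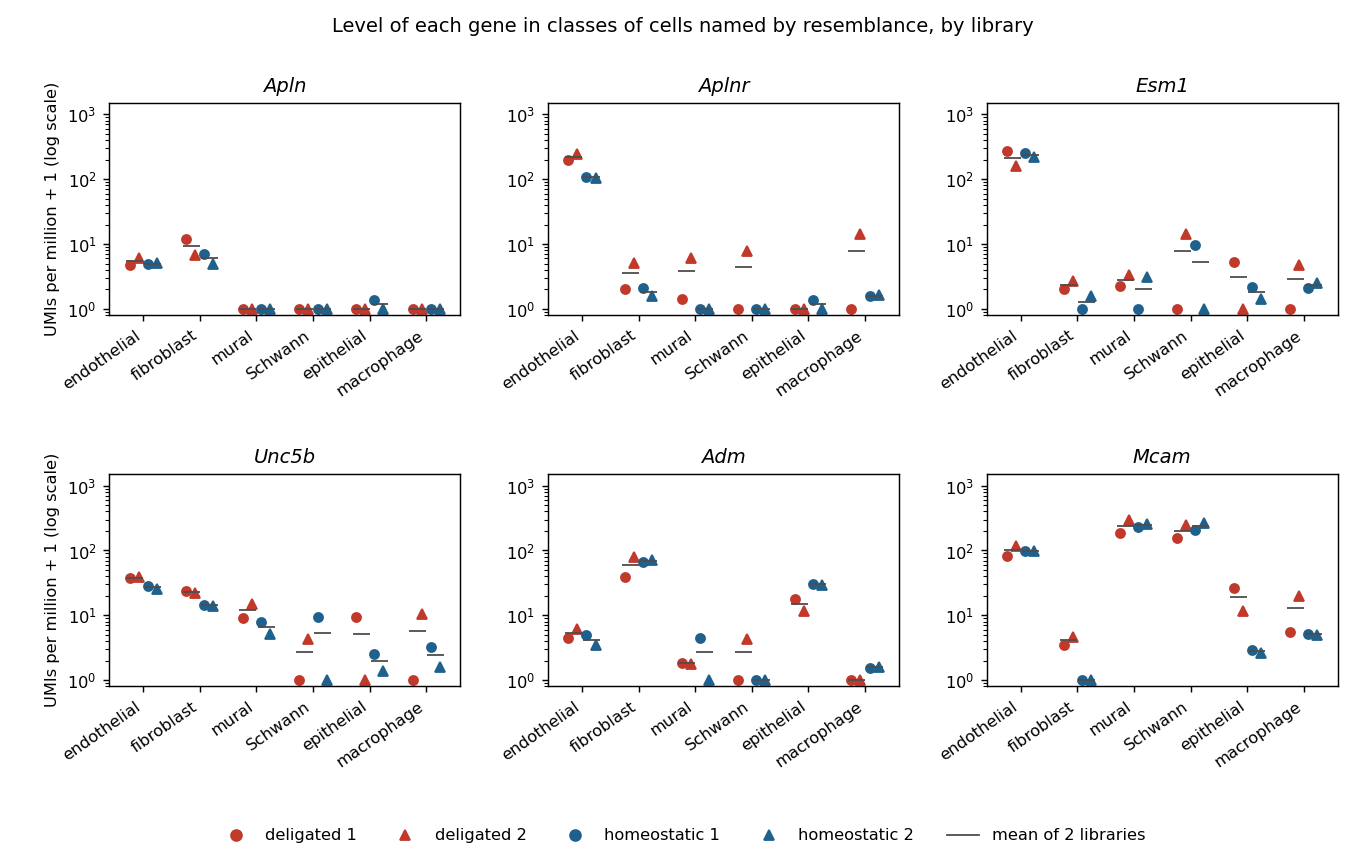
CPM + 1 on a log axis for each gene in 6 of the named classes, with 1 point per library and bars at the mean of the 2 libraries of a group. Aplnr and Esm1 stand near or above 100 CPM in endothelial-like cells and below 14 in the other 5 classes, Adm is highest in fibroblast-like cells, and Mcam is highest in mural-like and Schwann-like cells.

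Mcam was at 188, 293, 233 and 259 CPM in mural-like cells, the pericytes and smooth muscle of the vessel wall, and at 155, 247, 206 and 266 CPM in Schwann-like cells. In endothelial-like cells it was at 81.0, 117, 98.8 and 96.9 CPM, below the mural-like level of the same library in each of the 4. Adm in fibroblast-like cells was at 38.5, 77.9, 64.4 and 71.4 CPM, and in the 33 lymphatic-like endothelial cells at 265, 79.7, 208 and 104 CPM. The lymphatic-like values rest on 24, 9, 6 and 5 UMIs. Apln in fibroblast-like cells was at 10.95, 5.82, 6.06 and 4.00 CPM, and mural-like cells held no Apln UMI in any library, which allows up to 1.29, 1.19, 5.21 and 6.23 CPM (3 UMIs per library, counting error only).

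To set detection apart from depth, cells were also thinned to 1000 UMIs each. Aplnr was then seen in 16.0%, 18.5%, 9.97% and 9.24% of endothelial-like cells (unthinned 50.9%, 48.9%, 26.6% and 25.7%). In NK- and innate lymphoid-like cells, which should lack it, the thinned shares were 0%, 0%, 0.102% and 0%. Esm1 was seen in 17.0%, 10.7%, 14.7% and 12.4% of thinned endothelial-like cells, and Apln in 0.434%, 0.552%, 0.377% and 0.353%. The thinned Apln shares rest on 8 to 17 cells per library, and their exact 95% intervals overlap. Deligated 2 held more Aplnr than the other libraries in macrophage-like cells (13.4 CPM from 7 UMIs) and mural-like cells (5.15 CPM from 13 UMIs).

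Within the endothelium, Aplnr and Unc5b ran in opposite directions from artery to vein. Endothelial-like cells were divided by a clustering that left out these 6 genes and all listed genes. Markers gave 1377 arterial-like cells (Gja5 between 91.1 and 159 CPM, against at most 2.03 in venous-like and capillary-like cells), 323 venous-like cells (Selp between 337 and 515 CPM, against at most 2.21 elsewhere in these subtypes) and 8445 capillary-like cells. A further 1681 cells stayed unnamed. Of the capillary-like cells 1438 formed sub-cluster 2, which was led by secretory genes of the gland epithelium such as Scgb1b27, Scgb2b27 and Pip, although it carried the capillary markers Rgcc, Gpihbp1, Car4 and Cd300lg. Without it 7007 capillary-like cells were left, with Aplnr at 194, 256, 109 and 107 CPM and Esm1 at 312, 174, 335 and 286 CPM. Immediate-early genes such as Fos and Egr1 led sub-clusters 1 and 7, and interferon-response genes such as Ifit1 and Isg15 led sub-cluster 8. These comparisons between subtypes are given as levels without a test.

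**Figure D2:**
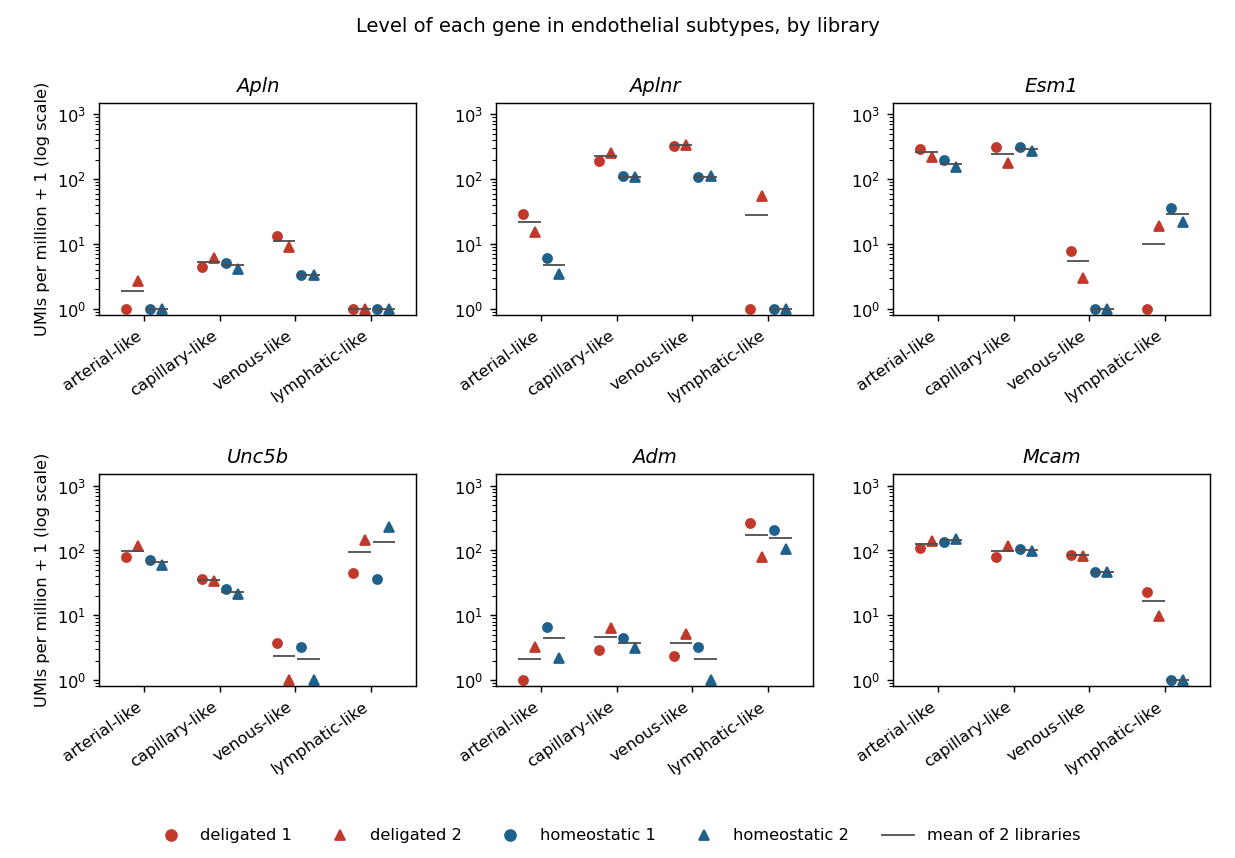
CPM + 1 on a log axis for each gene in endothelial subtypes, with 1 point per library and bars at the mean of the 2 libraries of a group. Aplnr is lower in arterial-like than in venous-like and capillary-like cells, and lymphatic-like cells held it only in deligated 2, on 6 UMIs. Unc5b and Esm1 are near 0 in venous-like cells, and Adm is highest in lymphatic-like cells.

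Aplnr was at 329, 331, 107 and 111 CPM in venous-like and 193, 254, 111 and 107 CPM in capillary-like cells, but at 27.7, 14.2, 5.00 and 2.46 CPM in arterial-like cells. The capillary-like level exceeded the arterial-like level of the same library by 6.97- to 43.4-fold. The order of venous-like and capillary-like cells was not settled, since their ratio ran from 0.963 to 1.71. Thinned to 1000 UMIs, Aplnr was detected in 31.3%, 20.0%, 14.5% and 10.0% of venous-like cells and 2.46%, 0.829%, 0.694% and 0.266% of arterial-like cells.

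Unc5b was at 79.2, 115, 69.5 and 59.7 CPM in arterial-like and 35.8, 32.3, 24.1 and 20.3 CPM in capillary-like cells. Arterial-like cells were 2.21- to 3.57-fold higher in each library. Venous-like cells held 3 Unc5b UMIs in all, at 2.73, 0, 2.27 and 0 CPM. The lymphatic-like level of 44.2, 142, 34.7 and 230 CPM overlapped the arterial-like one and rests on 32 UMIs.

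Esm1 was found in arterial-like cells (294, 221, 193 and 151 CPM) and capillary-like cells (311, 175, 316 and 274 CPM), with overlapping ranges. Venous-like cells held 6 Esm1 UMIs against 1450 in arterial-like and 11324 in capillary-like cells. Both homeostatic libraries had none in venous-like cells, which allows up to 6.81 and 7.11 CPM. Esm1 and Unc5b were both scarce in venous-like cells.

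Apln was at 12.3, 8.13, 2.27 and 2.37 CPM in venous-like cells, on 9, 4, 1 and 1 UMIs, and at 3.40, 5.04, 4.17 and 3.16 CPM in capillary-like cells. Arterial-like cells of 3 libraries held no Apln UMI, which allows up to 1.89 CPM in deligated 1, 1.67 in homeostatic 1 and 1.85 in homeostatic 2, and deligated 2 held 3 UMIs. Mcam was at 108, 138, 135 and 150 CPM in arterial-like, 78.6, 118, 105 and 97.9 CPM in capillary-like and 84.7, 81.3, 45.4 and 45.0 CPM in venous-like cells, and lymphatic-like cells held 3 Mcam UMIs. Arterial-like cells exceeded capillary-like cells by 1.17- to 1.53-fold in each library. Adm stayed at or below 5.56 CPM in arterial-like, capillary-like and venous-like cells.

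Finer differences were found among endothelial sub-clusters. Esm1 peaked in capillary-like sub-cluster 3 (1207 cells) at 791, 544, 807 and 795 CPM, where Aplnr was at 69.3, 80.7, 35.6 and 27.3 CPM. Aplnr peaked in sub-cluster 5 (1071 cells) at 404, 447, 188 and 199 CPM, where Esm1 was at 25.3, 4.13, 7.44 and 11.3 CPM. Sub-cluster 5 carried the venous markers Selp and Nr2f2, short of the 3 that naming required, and stayed unnamed. Sub-cluster 5 thus held little Esm1, and sub-cluster 3 held less Aplnr than capillary-like cells as a whole in each library.

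**Figure D3:**
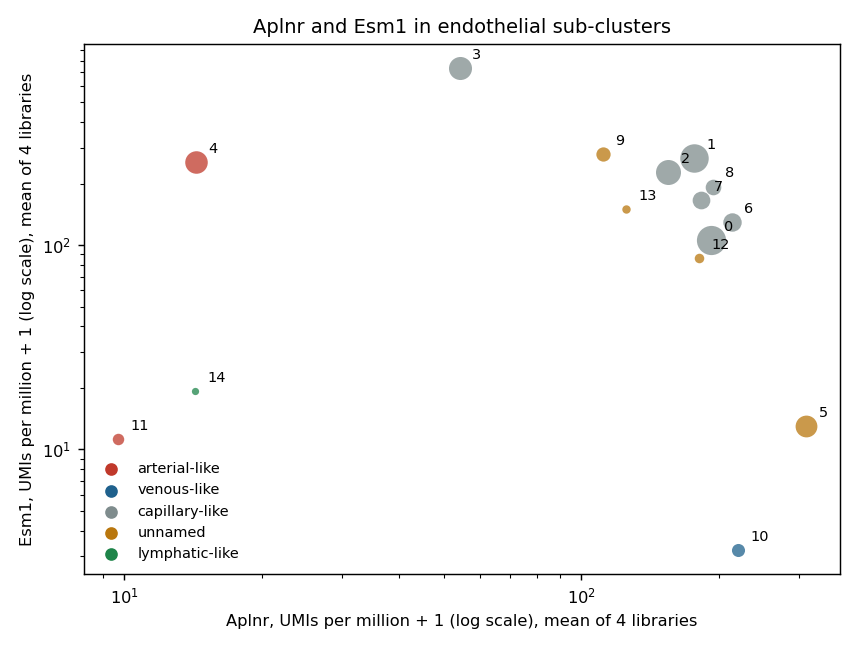
Mean CPM + 1 over the 4 libraries of Aplnr (x axis) and Esm1 (y axis), both on log axes, for 15 endothelial sub-clusters, coloured by subtype, with point area growing with cell number. Sub-cluster 3 lies at the top with less Aplnr than the other capillary-like sub-clusters, sub-clusters 5 and 10 lie at the lower right with much Aplnr and little Esm1, and the remaining capillary-like sub-clusters lie together at the upper right.

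Over the 13 sub-clusters with at least 100 cells, log2(CPM + 1) of Esm1 and Unc5b had a Pearson r of 0.77, Unc5b and Mcam 0.68, and Apln and Adm 0.69. Aplnr and Unc5b had -0.57 and Aplnr and Esm1 -0.05. These values describe sub-clusters that share the same 4 libraries. Arterial-like sub-clusters differed from each other in Esm1: sub-cluster 4 (1150 cells) held 360, 246, 233 and 183 CPM, and sub-cluster 11 (227 cells) held 0, 10.8, 0 and 30.01 CPM. Sub-cluster 11 was led by Gkn3, Cytl1 and Mgp and carried the large-artery marker Bmx among its leading genes. Unc5b was at 91.8, 122, 76.9 and 71.3 CPM in sub-cluster 4 and 23.8, 54.0, 32.9 and 15.0 CPM in sub-cluster 11.

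Of the 6 genes, Aplnr had the largest log2 fold change between deligated and homeostatic endothelial-like cells. It was at 194 and 245 CPM in deligated and 106 and 105 CPM in homeostatic libraries (219 ± 35.5 against 105 ± 0.995, SD, n = 2 each). Unc5b was at 36.4 and 37.9 against 27.5 and 24.2 CPM. For both, the groups did not overlap, but how many of all genes do so with 2 libraries per group was not counted. The edgeR fit gave log2 fold changes of 1.07 (SE 0.11) for Aplnr and 0.54 (SE 0.10) for Unc5b. After each library's trend with intron length was removed, these values were 0.79 for Aplnr and 0.78 for Unc5b.

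The other 4 did not separate the groups. Apln was at 3.78 and 5.19 against 3.85 and 4.06 CPM, Adm at 3.44 and 5.13 against 3.92 and 2.54 CPM, and Mcam at 81.0 and 117 against 98.8 and 96.9 CPM. Esm1 was at 270 and 157 against 250 and 216 CPM, so the lowest and the highest values were both deligated. Its log2 fold change of -0.10 (SE 0.26) became -0.59 without deligated 1 and 0.30 without deligated 2, and that of Mcam (0.03) became 0.23 and -0.19. Of the 6 genes, chosen by this contrast, 2 were past an adjusted p of 0.05 against 35.4% of 13195 tested genes, and nothing is read from this count.

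The higher Aplnr level was seen in capillary-like, venous-like and arterial-like cells. Deligated and homeostatic means differed 2.05-fold in capillary-like cells (223 ± 43.0 against 109 ± 2.65 CPM), 3.03-fold in venous-like cells (330 ± 1.46 against 109 ± 3.34 CPM) and 5.61-fold in arterial-like cells (20.9 ± 9.52 against 3.73 ± 1.80 CPM). The arterial-like levels rest on 44, 25, 9 and 4 UMIs. In deligated 2 the arterial-like level (14.2 CPM) was near that of macrophage-like cells (13.4 CPM from 7 UMIs). Whether the differences between groups themselves differed between subtypes was tested with subtype-by-group terms in edgeR, with the library as block. They did not pass for Aplnr (venous-like against capillary-like 0.60, SE 0.23, edgeR adjusted p = 0.38; arterial-like against capillary-like 1.41, SE 0.48, adjusted p = 0.335). Leaving out 1 library, which leaves 1 in a group, gave 0.45 to 0.81 for the venous-like and 0.71 to 2.04 for the arterial-like term.

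Esm1 differed between subtypes in this respect. Its capillary-like level over its arterial-like level was 1.06 and 0.794 in deligated and 1.63 and 1.81 in homeostatic libraries. The arterial-like mean was 257 ± 51.3 deligated against 172 ± 29.7 CPM homeostatic, and the capillary-like mean 243 ± 95.9 against 295 ± 29.99 CPM. The difference of changes was 0.90 on the log2 scale (SE 0.14, edgeR adjusted p = 0.000645). It was the 1 test of 10 on these genes past the threshold (Adm was too low to be tested), where 0.399% of 10771 genes passed for the arterial-like term and 0.464% for the venous-like term. The genes were chosen by the group contrast in these same cells, so these tests are not independent of that choice. With DESeq2 the adjusted p was 0.0896, with thinned cells 0.269 and without homeostatic 2 0.142. Leaving out capillary-like sub-cluster 2 gave 0.97 (adjusted p = 0.000238). For Mcam, at 83.0 ± 2.40 against 45.2 ± 0.253 CPM in venous-like and 98.4 ± 28.1 against 101 ± 4.95 CPM in capillary-like cells, the difference was 0.99 (SE 0.28, edgeR adjusted p = 0.15). It became 1.31 without deligated 2, which left 1 deligated library.

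Outside the endothelium, Unc5b rose with deligation in fibroblast-like cells. It was at 23.0 and 20.98 against 13.2 and 13.1 CPM (log2 fold change 0.79, SE 0.22, edgeR adjusted p = 0.0265), on 109, 137, 24 and 23 UMIs. Apln (0.77, SE 0.47, edgeR adjusted p = 0.258) and Adm (-0.16, SE 0.27, adjusted p = 0.708) did not pass. Aplnr, Esm1 and Mcam were too low in fibroblast-like cells for a test, so 1 of 3 tested genes was called, where 25.7% of 11429 genes were. Unc5b was not past the threshold with DESeq2 (adjusted p 0.184), without homeostatic 1 (0.159) or without homeostatic 2 (0.133). Without deligated 2, which left 1 deligated library, the log2 fold changes were 1.23 for Apln and -0.69 for Adm. The groups lay in different clusters here, cluster 8 (359, 748, 13 and 14 cells) and cluster 16 (0, 0, 256 and 251 cells).

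In mural-like cells the fit, added after cell numbers were seen because homeostatic 2 held 72 such cells, called neither Mcam (-0.07, SE 0.21, edgeR adjusted p = 0.914) nor Unc5b (0.93, SE 0.60, adjusted p = 0.46). No member passed there at an unadjusted p under 0.05 or with DESeq2, and 6.29% of 9817 genes were called. In T cell-like and NK- and innate lymphoid-like cells all 6 genes fell below the filter on low counts, where 28.7% and 44.5% of tested genes were called.

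Cells holding the ligand transcript were also richer in the receptor transcript. Endothelial-like cells with at least 1 Apln UMI (41, 61, 45 and 43 cells) were summed and set against those with none, within each library. They made up 2.22%, 1.97%, 1.29% and 1.25% of endothelial-like cells. In NK- and innate lymphoid-like cells the shares with an Apln UMI were 0%, 0.307%, 0.102% and 0.386%. The part of such background in the split was not tested. Aplnr was at 359, 413, 215 and 207 CPM in cells with and 188, 240, 104 and 103 CPM in cells without Apln. The log2 difference was 0.83 (SE 0.09, edgeR adjusted p = 7.87e-16), higher in 4 of 4 libraries, and it lay between 0.67 and 0.91 under all 12 alternatives, passing in each.

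Esm1 went the other way, at 101, 25.3, 79.7 and 64.9 CPM with and 276, 160, 253 and 218 CPM without Apln (-1.85, SE 0.13, edgeR adjusted p = 7.01e-41), lower in 4 of 4. Unc5b was at 18.8, 21.1, 12.0 and 12.2 against 37.0, 38.4, 27.8 and 24.5 CPM (-1.05, SE 0.27, edgeR adjusted p = 0.00446), lower in 4 of 4. Among capillary-like cells alone, the Esm1 difference was -1.68 and still passed, whereas that of Unc5b was -0.51 (adjusted p = 0.599). Unc5b also missed the threshold with DESeq2 (0.178), without deligated 1 (0.0785) and without deligated 2 (0.0537).

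Adm was higher in cells with Apln in 4 of 4 libraries, at 5.63, 40.1, 12.0 and 12.2 against 3.35, 4.13, 3.77 and 2.36 CPM (2.25, SE 0.43, edgeR adjusted p = 1.1e-05). This rests on 3, 19, 3 and 3 UMIs, and without deligated 2 the difference was 1.41 (adjusted p = 0.44). Mcam was at 122, 158, 124 and 130 against 79.4, 116, 98.4 and 96.3 CPM (0.39, SE 0.12, edgeR adjusted p = 0.0322). It missed the threshold under 7 of 12 alternatives, among them leaving out deligated 1, deligated 2 or homeostatic 2 (adjusted p between 0.0709 and 0.222), and it was 0.60 among capillary-like cells. All 5 other genes were thus called, where 4.20% of 12590 tested genes were, and the count fell to 2 without deligated 2 and to 3 without deligated 1.

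Cells with Apln were deeper than those without, with median UMIs of 12507, 7207, 4960 and 4687 against 5955.5, 4438, 3651 and 3630. Against cells without Apln of matched depth, Aplnr, Esm1, Unc5b and Mcam were still called and Adm was not (1.16, adjusted p = 0.151). The 5 mast cell markers summed to 28.2, 44.3, 23.9 and 20.3 CPM in cells with Apln against 5.92, 4.01, 1.35 and 2.59 CPM without, but 4 of them (Cma1, Cpa3, Fcer1a and Mcpt4) were at 0 in cells with Apln, and the other was Kit. The 7 fibroblast markers summed to between 3.98 and 105 CPM with and 9.16 and 120 CPM without Apln, and the 9 mural markers to between 7.97 and 40.1 CPM with and 19.9 and 67.2 CPM without.

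**Figure D4:**
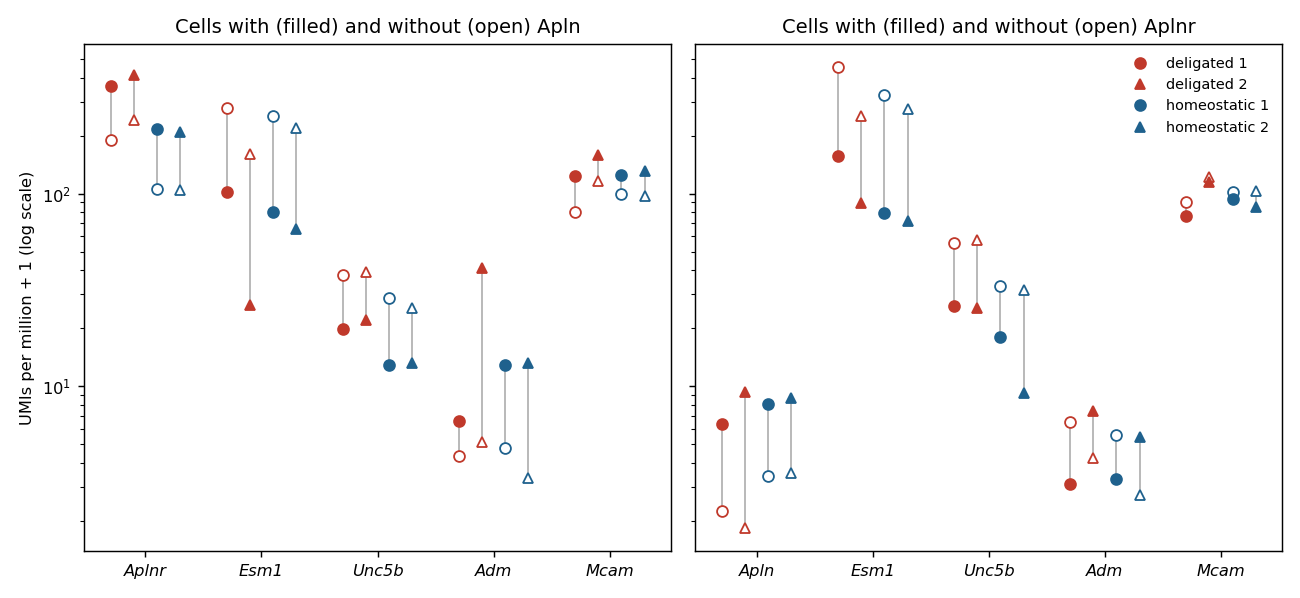
CPM + 1 on a log axis in endothelial-like cells with (filled) and without (open) a UMI of Apln (left) or Aplnr (right), joined within each library. Esm1 and Unc5b are lower in the filled points of both panels in all 4 libraries, and Aplnr on the left and Apln on the right are higher.

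The split by receptor gave the same directions for Esm1 and Unc5b. Endothelial-like cells with Aplnr (942, 1515, 928 and 882 cells) held Apln at 5.36, 8.32, 7.15 and 7.72 CPM, against 1.25, 0.846, 2.41 and 2.56 CPM in those without (1.99, SE 0.24, edgeR adjusted p = 2.45e-06). Apln was higher in 4 of 4 libraries. Esm1 was at 156, 87.9, 78.4 and 71.5 against 453, 252, 324 and 275 CPM (-1.72, SE 0.06, edgeR adjusted p = 4.5e-15), and Unc5b at 25.2, 24.6, 17.1 and 8.22 against 54.2, 56.3, 32.0 and 30.8 CPM (-1.20, SE 0.09, adjusted p = 1.5e-09). Both were lower in 4 of 4 libraries and were called also among capillary-like cells alone, at -1.72 for Esm1 and -0.65 for Unc5b. Mcam was slightly lower (-0.19, SE 0.05, edgeR adjusted p = 0.00484), a call lost with DESeq2, with thinned cells and among capillary-like cells. With thinned cells only Esm1 and Unc5b were called, and Apln had no test there. Adm did not pass (0.03, SE 0.33, edgeR adjusted p = 0.972). Cells with Aplnr had median UMIs of 7891.5, 5425, 3989.5 and 3998 against 4967, 3793, 3567 and 3538. The count was 4 of 5, where 15.3% of 12695 genes were called.

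A small group of cells was picked as the sub-cluster of the finer clustering with the highest Apln level. Apln had not been used in that clustering, but the high Apln level of the group was set by this choice. The group held 47 cells (14, 15, 11 and 7), between 0.204% and 0.757% of endothelial-like cells, and 43 of them lay in capillary-like sub-cluster 6. That sub-cluster (738 cells: 239, 328, 79 and 92) was led by Gm26917, Lars2 and Vsig2, with the nuclear RNA Neat1 among its 10 leading genes, and had a median of 2465.5 UMIs against 3968 in the 47 cells. The part of RNA quality in this grouping was not tested. It is described here after its values were seen and without a test. Apln was at 98.1, 274, 215 and 293 CPM in these cells on 7, 20, 8 and 10 UMIs, which is 17.7% of endothelial-like Apln UMIs, and 16 of the 47 cells held a UMI.

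Aplnr was at 266, 588, 429 and 293 CPM in the 47 cells and Mcam at 266, 492, 590 and 469 CPM, each above the level of all endothelial-like cells in the same library. Unc5b was at 70.1, 54.7, 53.6 and 29.3 CPM on 12 UMIs in all. Esm1 was at 112, 27.4, 0 and 117 CPM on 14 UMIs, below the level of all endothelial-like cells in each library. Adm was at 14.0, 328, 0 and 58.6 CPM, with 24 of 27 UMIs in deligated 2. The 10 genes leading the group were Apln, the receptor tyrosine kinase Kit, Cpne7, Csf2rb2, Adm, Noct, Lcp2, the nitric oxide synthase Nos2, AC126280.1 and the matrix glycoprotein Thbs1. Csf2rb2, a cytokine receptor chain, and Lcp2, a signalling adaptor, are known from blood cells, and their part in the result was not tested. Without these cells Aplnr, Esm1, Unc5b and Adm were still called between cells with and without Apln, and Mcam was not (0.12, adjusted p = 0.802).

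Genes known from tip cells beyond the 6 were taken as a list of 28. This list and those that follow were chosen with earlier results of these data known, so their counts are not independent of the data. In endothelial-like cells 14 of 28 rose with deligation and 2 fell (edgeR adjusted p under 0.05), with a median log2 fold change of 0.35 against 0.00 over all 13195 genes, of which 13.1% rose and 22.4% fell. The changes are shown in the plot of the tip-cell list. In the same cells the 9 mural markers summed to 55.2 and 66.4 CPM in deligated against 22.9 and 19.7 CPM in homeostatic libraries, and the 10 epithelial markers to 2.06 and 4.72 against 36.4 and 40.8 CPM. Fibroblast markers (7) summed to 37.0 and 120 against 9.51 and 9.21 CPM. Their part in this result and in those of the lists that follow was not tested. Marcksl1, an actin-binding protein of filopodia, was at 27.6 and 32.1 against 12.0 and 11.6 CPM (1.35, SE 0.10, edgeR adjusted p = 0.000262). The matrix protein Sparc was at 2301 and 2131 against 1356 and 1344 CPM (0.74, SE 0.10, adjusted p = 0.00271).

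The basement membrane chain Lamb1 (0.85, SE 0.15, edgeR adjusted p = 0.00744), the sialomucin Cd34 (0.46, SE 0.08, adjusted p = 0.00756), the chemokine receptor Cxcr4 (1.16, SE 0.23, adjusted p = 0.01) and the collagen hydroxylase Plod1 (0.41, SE 0.08, adjusted p = 0.0101) rose as well. Insr (-0.63) and Plaur (-1.13) fell. Insr has 144 kb of intron and was at 0.03 (adjusted p = 0.799) after the trend with intron length was removed. With the trend removed 13 of 28 were higher and 1 lower: Pdgfb (0.65, edgeR adjusted p = 0.0552) and Fscn1 (0.22, adjusted p = 0.0728) lost their calls and Kdr (0.36, adjusted p = 0.0285) gained one. Dll4 (61.0 and 85.6 against 72.7 and 74.1 CPM) and Angpt2 (7.91 and 6.25 against 10.0 and 9.505 CPM), known tip-cell genes named here after their values were seen, were not called. Without homeostatic 1 or without homeostatic 2 only 2 of the 28 were called, and without deligated 1 there were 25.

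In cells with Apln the same list divided. Of 28 genes 10 were higher and 5 lower than in cells without (edgeR adjusted p under 0.05), where 1.46% of 12590 genes were higher and 2.74% lower, and the median was 0.26 against -0.06 over all genes. The higher ones included the filopodial bundling protein Fscn1 (1.14, SE 0.12, edgeR adjusted p = 5.25e-18), Col4a1 (0.36, SE 0.06, adjusted p = 7.43e-08), Trp53i11 (0.53, SE 0.11, adjusted p = 3.87e-05), Marcksl1 (0.96, SE 0.22, adjusted p = 0.000754), Col4a2 (0.26, SE 0.06, adjusted p = 0.00152) and Cd34 (0.28, SE 0.07, adjusted p = 0.00248). The lower ones were the arterial ephrin Efnb2 (-1.17), Igfbp3 (-0.58), Pdgfb (-0.43), the VEGF receptor Kdr (-0.27) and the Notch ligand Dll4 (-0.52). Among capillary-like cells alone 7 of 27 tested genes were higher and 4 lower, where 2.64% of 11837 genes were called. Dll4 (-0.20, edgeR adjusted p = 0.791), Cd34 (0.24, adjusted p = 0.0717), Plaur (1.20, adjusted p = 0.051) and Robo4 (0.28, adjusted p = 0.215) lost their calls there. Plaur, the urokinase receptor, singled out after its values were seen, was higher in cells with Apln (1.16, SE 0.30, edgeR adjusted p = 0.00518) and lower after deligation. Without homeostatic 1 the count was 9 in place of 15.

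**Figure D5:**
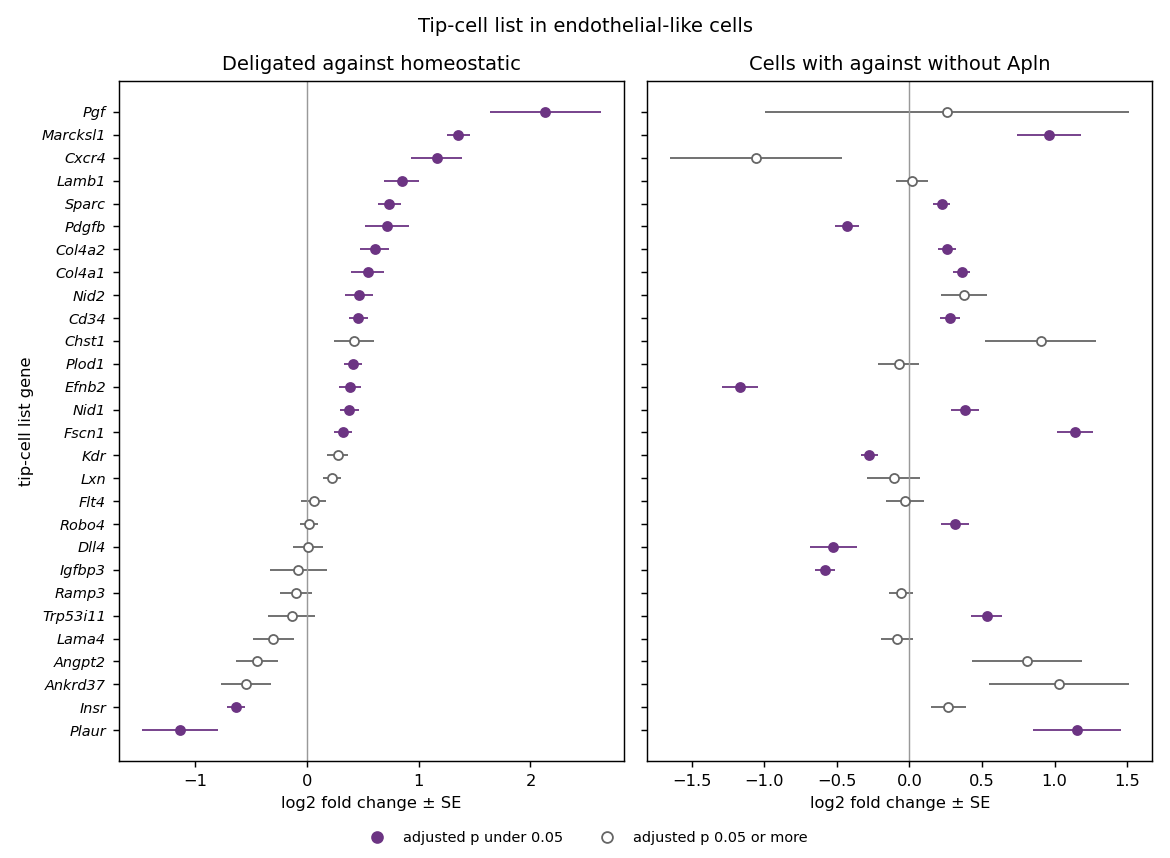
Log2 fold change with SE for the 28 genes of the tip-cell list in endothelial-like cells, deligated against homeostatic (left) and cells with against without Apln (right), ordered by the left panel, filled where the adjusted p was under 0.05. On the left 14 genes lie above and 2 below 0 among the filled points, and on the right 10 and 5.

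Ligands, receptors and partners of the 6 genes were a list of 29, of which 22 passed the filter and 8 were called with deligation (5 higher, 3 lower; 36.4% against 35.4% of all tested genes). The median was -0.04 against 0.00 over all genes. The alternative apelin receptor ligand Apela had no UMI in any endothelial-like library, and the peptidase Mme was at 0 and 0.354 against 1.05 and 1.02 CPM (edgeR adjusted p = 0.0558). Of the adrenomedullin receptors, Calcrl was at 384 and 285 against 381 and 375 CPM (-0.15, adjusted p = 0.518), Ramp2 at 769 and 834 against 682 and 681 CPM (0.25, adjusted p = 0.0595) and Ramp3 at 324 and 461 against 431 and 418 CPM (-0.10, adjusted p = 0.622). Ramp1 (0.38, adjusted p = 0.575) and the decoy receptor Ackr3 (-0.59, adjusted p = 0.17) did not pass either, and Adm2 had no UMI. Gpr182, an endothelial atypical chemokine receptor once proposed for adrenomedullin, rose (0.66, SE 0.17, edgeR adjusted p = 0.0281), a call lost after the intron-length trend was removed (0.45, adjusted p = 0.076).

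Of the 7 tested partners of MCAM 4 rose, where 13.1% of all genes did: Lamc1 (0.48), Lama5 (0.33), Lgals1 (0.85) and Pdgfrb (2.98). They belong to the partner list, whose share of called genes was near that of all genes. Pdgfrb was at 0.894 and 4.19 against 0.280 and 0.363 CPM and is one of the mural markers summed above. Of the UNC5B partners, Neo1 (-0.62) and Ntn1 (-0.86) fell, with 153 and 185 kb of intron, and neither passed after the intron-length trend was removed (0.08 and -0.04). Ntn4, with 103 kb, went the other way, from 0.24 (edgeR adjusted p = 0.11) to a call at 0.71 (adjusted p = 0.00331). With the trend removed, 6 genes of the partner list were higher and 1 lower. Unc5d had no UMI in either deligated library and was at 0.909 and 0.726 CPM in homeostatic ones, on 13 and 10 UMIs. It is the other of the 3 lower genes and passed the low-count filter only through the homeostatic libraries. Without homeostatic 1 there was 1 call in the partner list, without homeostatic 2 none, without deligated 1 there were 17 and without deligated 2 there were 15.

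The receptor-bearing cells differed from the rest in the same partner list. With the split by Aplnr, 6 of 20 tested genes were higher and 3 lower (edgeR adjusted p under 0.05), where 7.81% and 7.51% of all genes were. Gpr182 (1.16, SE 0.10, edgeR adjusted p = 1.88e-08), Ramp3 (0.27), Calcrl (0.15) and Ackr3 (0.15) of the adrenomedullin system were higher with Aplnr. Among capillary-like cells alone Gpr182 was still called (0.84, edgeR adjusted p = 1.58e-05), whereas Ramp3 (0.04, adjusted p = 0.633), Calcrl (-0.04, adjusted p = 0.615) and Ackr3 (0.07, adjusted p = 0.462) were not. There 3 of 19 tested partners were higher and 2 lower, where 6.93% of 12029 genes were called. The netrin Ntn4 was lower (-1.86, SE 0.10, edgeR adjusted p = 1.23e-11), and it was lower in cells with Apln too (-1.50, SE 0.36, adjusted p = 0.00151). Among capillary-like cells the Ntn4 difference was -1.07 with Aplnr (edgeR adjusted p = 1.32e-07) and -0.93 with Apln (adjusted p = 0.46, not called).

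Hypoxia-responsive genes did not move one way. Of 15 tested 4 rose and 2 fell with deligation (40% called against 35.4% of all genes), with a median of 0.06. Ddit4, an inhibitor of mTORC1, was at 45.2 and 70.1 against 15.2 and 15.3 CPM (1.93, SE 0.19, edgeR adjusted p = 0.000676), and Ndrg1 (0.46), Bnip3 (0.42) and Pdk1 (0.42) rose, of which Bnip3 lost the call after the intron-length trend was removed (0.36, adjusted p = 0.0582) while Higd1a gained one (-0.27, adjusted p = 0.0358). The glucose transporter Slc2a1 (-0.88) and the collagen hydroxylase P4ha1 (-0.66) fell. Without homeostatic 1 there were 2 calls, without homeostatic 2 there were 3, and without deligated 2 there were 10. In cells with against without Apln, edgeR called 0 of 13 genes of this list, with 3 at an unadjusted p under 0.05 (Eno1, Ddit4 and Ankrd37, named after their values were seen) and 0 called by DESeq2, where edgeR called 4.20% of 12590 genes. With Aplnr edgeR called 3 of 14 higher and 1 lower, where 15.3% of all genes were called, and DESeq2 called 0 of the list. Among capillary-like cells 1 of 14 was called with Aplnr, where 6.93% of 12029 genes were.

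Of the Notch and stalk list, 13 of 14 genes were tested and 6 rose and 1 fell with deligation (53.8% called against 35.4% of all genes), with a median of 0.30. Tie1 (0.51, SE 0.09, edgeR adjusted p = 0.00597), Lfng (0.41), Jag2 (0.36), Notch1 (0.31), Hes1 (0.36) and Jag1 (0.30) rose, of which Hes1 lost the call after the intron-length trend was removed (0.17, adjusted p = 0.247). Tek fell (-0.28), but was at 0.33 and called higher after removal of the trend with its 131 kb of intron (adjusted p = 0.0316). Flt1, with 151 kb, moved from -0.05 (edgeR adjusted p = 0.70) to a call at 0.64 (adjusted p = 0.0039), so that 7 genes of this list were higher and 0 lower with the trend removed. No gene of this list was called without homeostatic 1 or without homeostatic 2, and 12 were without deligated 1.

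The Notch targets Hey1 and Hes1 were lower in cells with either apelin gene. Hey1 differed by -2.25 (SE 0.39, edgeR adjusted p = 6.78e-07) between cells with and without Apln and by -2.61 (SE 0.12, adjusted p = 4.93e-13) with and without Aplnr. Hes1 differed by -0.56 and -0.41. Hey1 is also an arterial marker here, at a mean of 132 CPM in arterial-like, 14.1 in capillary-like and 0.909 in venous-like cells, and arterial-like cells held little of either apelin gene. Among capillary-like cells alone, Hey1 differed by -1.46 with Apln (edgeR adjusted p = 0.197, not called) and -1.58 with Aplnr (adjusted p = 2.11e-11), and Hes1 by -0.43 (adjusted p = 0.00096) and -0.40 (adjusted p = 2.65e-09). Nrarp was higher with Apln (0.61, edgeR adjusted p = 0.0349) and lower with Aplnr (-0.33, adjusted p = 0.00527), and among capillary-like cells it was at 0.81 (adjusted p = 0.0252) and -0.17 (adjusted p = 0.316, not called). In all, 1 of 13 genes was higher and 3 lower with Apln, where 1.46% and 2.74% of all genes were. With Aplnr 2 were higher and 8 lower, where 7.81% and 7.51% of all genes were. Among capillary-like cells 1 was higher and 2 lower with Apln, where 2.64% of 11837 genes were called. With Aplnr 2 were higher and 4 lower there, where 6.93% of 12029 genes were called.

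Genes whose levels followed the 6 most closely were sought over 13 named classes and subtypes, by the Pearson correlation of log2(CPM + 1) among 13132 genes. All classes share the same 4 libraries, and the values are descriptions. For Aplnr these were Lhx6 (r = 0.97), Rps6kl1 (0.96) and Chrm2 (0.96), and for Esm1 Ssu2 (0.94), Olfr1396 (0.93) and Lrrc3b (0.93). For Mcam they were Sorbs2, Tspan15 and Sorbs2os (0.95, 0.95 and 0.94), and for Adm Pdpn, Caprin1 and Col23a1 (0.91, 0.91 and 0.90). Apln was followed by Itga2b, Rgs7 and Mdfi (0.91, 0.90 and 0.90), and Unc5b by Dmtn, Gnas and Psmd7 (0.90, 0.89 and 0.88). Among the 6 themselves, Esm1 and Unc5b had an r of 0.73 and Apln and Aplnr 0.66.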

How the data were processed

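The deposited values are raw UMI counts per gene and barcode, made by the authors with Cell Ranger, 6.0.1 for deligated and 7.0.0 for homeostatic libraries per the file headers. The submitters' processing notes list Cell Ranger 6.0.1, Seurat and mm10 for all samples. Barcodes with at least 300 genes and at most 10% mitochondrial UMIs were kept, and predicted doublets were removed at 0.8% per 1000 cells. Cells were clustered (3000 variable genes, 30 components, 20 neighbours, Leiden resolution 1; leidenalg 0.10.2, scikit-learn 1.9.0) without the 6 genes or the listed genes, and clusters were named from at least 3 markers. The scoring of capillary-like sub-clusters was set with the clusters in view. Counts were summed per library and cell class and tested with edgeR 4.0.16 (quasi-likelihood, TMM factors, filterByExpr), with Benjamini-Hochberg adjustment over all tested genes and a threshold of 0.05. Splits and subtype terms kept the library as block. DESeq2 1.42.0 was an alternative. The code was tested on simulated counts: of genes changed by 1 on the log2 scale, 74% were recovered in the endothelial-like comparison, 48% in the split by Apln and 12% in the subtype terms. CPM intervals and floors (3 UMIs) cover counting error only. Members and lists were chosen with earlier results of these data known. Named genes are the 6 members, up to 6 called genes per direction of each list, the apelin and adrenomedullin receptor systems, and the 3 genes most like each member. One gene of the partner list is not reported here.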

Additional observations from a re-analysis of the deposited data

Results flagged for a closer look

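The change of Esm1 with deligation differed between arterial-like and capillary-like endothelial cells by 0.90 on the log2 scale (SE 0.14, edgeR adjusted p = 0.000645 for the difference itself). Esm1 was among the genes chosen by the group contrast in these cells, so the test is not independent of that choice. Arterial-like cells held 294 and 221 CPM in deligated against 193 and 151 CPM in homeostatic libraries, and capillary-like cells 311 and 175 against 316 and 274 CPM. The adjusted p ranged from 4.85e-13 to 0.269 over 11 alternatives.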

How the results depend on the processing

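Over 10 counts of called genes, 84 of 117 alternative values stayed within 1.5 times the reported count. With the intron-length trend removed, the called genes Tek (-0.28 to 0.33), Insr (-0.63 to 0.03) and Neo1 (-0.62 to 0.08) changed sign. Leaving out the capillary-like sub-cluster led by secretory genes, an alternative chosen after seeing the data, changed no count for the splits or the subtype terms. With DESeq2 the count was 0 for the 6 genes outside the endothelium (reported 1), 3 in the split by Apln (reported 5) and 0 for the subtype terms (reported 1). Without a low-count filter it was 2 outside the endothelium and 2 for the subtype terms. With cells thinned to 1000 UMIs it was 0 outside the endothelium, 2 for the partner list (reported 8), 2 for the Notch list (reported 7), 2 in the split by Aplnr (reported 4) and 0 for the subtype terms. Leaving out 1 library gave 0 to 3 outside the endothelium, 2 to 25 for the tip-cell list (reported 16), 0 to 17 for the partner list, 2 to 10 for the hypoxia list (reported 6), 0 to 12 for the Notch list, 2 to 5 in the split by Apln, 9 to 14 for its tip-cell list (reported 15) and 0 to 4 for the subtype terms. For the tip-cell, partner, hypoxia and Notch lists the counts moved both ways, and the cause was not tested. The replicate numbers do not pair the libraries (correlation of deviations -0.0787 over 13195 genes), and with the replicate block the Notch list had 3 calls. Mural-like cells under the stricter cell filter and the split by Apln in thinned cells were not run, with 17 and 8 cells in the smallest library.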

Other observations

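Esm1 was also found in an unnamed cluster of few UMIs led by Rbp7, Fabp4 and Esm1, at 300, 103, 283 and 221 CPM in 53, 44, 558 and 626 cells. In an unnamed cluster of dividing cells, 16 Apln UMIs (58.3 CPM) were found in the 24 cells of deligated 1 and none in the 13, 15 and 27 cells of the other libraries.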
